A study of Homo sapiens with 2 samples.

Results

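The results concern long intergenic non-coding RNA (lincRNA) regions for which the array carried more than 1 probe. The regions were those named lincRNA with hg19 coordinates in the array design whose name was shared by at least 2 different probes. This held for 611 of 6802 regions, with 1386 probes, while the other 6191 regions had a single probe. One window given under the processing was left out. The arrays compared RWPE-1 cells, an established noncancerous human prostate epithelial cell line, transfected with pre-miR-424, a precursor that supplies the microRNA miR-424, with RWPE-1 cells that received the precursor Negative control #1, both at 30 nM. All cells were grown in the same keratinocyte serum-free medium. RNA of both was hybridised together on 2 Agilent two-colour arrays. In the normal labelling Cy5 marked the pre-miR-424 cells, and in the dye swap it marked the control cells. The labels call the arrays technical replicates, so they stood for 1 replicate, and values are given for each array without p-values. An SD between the arrays covers labelling and hybridisation only.

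LincRNAs are transcribed from intervals between protein-coding genes, often at low levels, and some act on chromatin, on splicing or as hosts from which microRNAs are cut. A microRNA pairs with its target RNAs mainly through its seed, bases 2 to 8, and lowers their level or translation. The target sites are best known in messenger RNAs. A region can hold several transcripts, and both strands have entries of their own. A second probe, with another name in the array design, measures the same interval again. The agreement of both probes is a description that single-probe regions cannot give. The mature sequences of the miR-424 hairpin, shown because pre-miR-424 is a precursor of miR-424, are given here from RefSeq with the seed in capitals.
hsa-miR-424-5p: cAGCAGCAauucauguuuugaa
hsa-miR-424-3p: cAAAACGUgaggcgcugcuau
They lie on the minus strand of GRCh38.p14 at chrX:134546680-134546701 and chrX:134546644-134546664. The labels do not say which arm was meant. Sequences of the lincRNA probes were not analysed here, so no seed match was searched for.

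The sample check and the depth were brief. Of the prostate basal epithelial markers KRT5, KRT14, TP63, ITGA6 and KRT15, 5 of 5 were well above background in both dyes on both arrays, as were the epithelial markers CDH1 and EPCAM. Of the luminal markers reported here, KRT8 and KRT18 were above background, whereas KLK3 was not. COL1A1 and COL3A1 of the 3 fibroblast markers, CDH5 of the 2 endothelial markers and PTPRC of the 2 leukocyte markers also passed, and PDGFRA, PECAM1 and CD3E did not. Over the array, 25983 of 42405 probes (61.3%) were well above background, and 25664 of these had no outlier spot and were measured.

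Detection differed widely with the number of probes per region. In the 483 regions with 2 probes, 612 of 966 probes (63.4%) were well above background, against 3135 of 6191 (50.6%) in single-probe regions. In the 128 regions with 3 to 5 probes it was 5 of 420 (1.19%), and 124 of these regions had no probe above background. None of the 105 probes in the regions with 4 or 5 probes passed. Loosening the demand to any channel of either array raised the count to 35 of 420. The median spot signals of these probes were 84 for pre-miR-424 and 53 for control on the array with normal labelling, and 52 and 82 on the swap. For the probes of 2-probe regions they were 180 and 116, and 103 and 193. Genes with RefSeq accessions did not show this drop. Their share of probes above background was 67.7% with 1 probe, 74.1% with 2, 74.6% with 3, 76.0% with 4 and 81.2% with 5. The last share came from only 16 accessions with 80 probes. The regions with 3 to 5 probes were not much longer, with a median of 16832 bases against 12476 for those with 2. A probe not well above background has only a bound on its level, so the data do not say that these RNAs are absent.

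**Figure D1:**
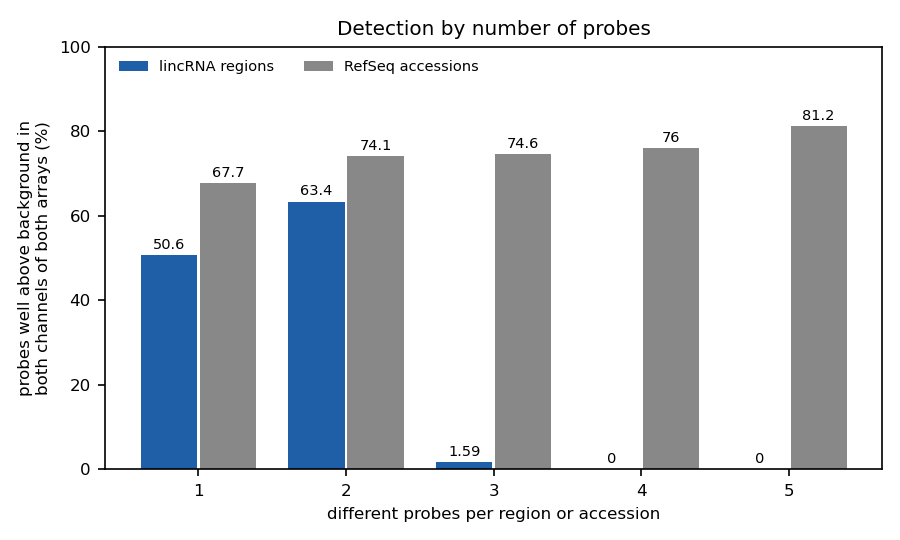
The bars give the percentage of probes well above background in both dyes on both arrays (vertical axis) by the number of different probes per lincRNA region or RefSeq accession (horizontal axis). The lincRNA bars drop from 63.4% with 2 probes to 1.59% with 3 and 0 with 4 or 5, while the RefSeq bars lie between 67.7% and 81.2%.

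The numbers in the probe names were also related to detection. In 142 of the 2-probe regions the names lay within 5 of each other, and 132 of 284 such probes (46.5%) were above background. Where the names lay further apart, 480 of 682 (70.4%) passed. Among regions with 3 to 5 probes, the share was 1.56% with near names and 0.877% with distant ones, so the low detection held for both kinds.

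Of the 611 regions, 273 had 2 measured probes, 71 had 1 and 267 had none, which left 617 measured probes. None had 3. Only 1 of the 273 belonged to the regions with 3 or more probes, chr7:77280657-77281918 on the plus strand, whose 2 measured probes had log2 ratios of 0.00 and 0.00 with normal labelling and of 0.14 and 0.20 on the swap. The other 3 probes measured in that class also lay near 0, with means of 0.03, 0.06 and -0.11.

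Most measured probes barely differed between the cells. The median of the mean log2 ratio of pre-miR-424 over control was -0.01 for the 617 probes and -0.01 for all measured probes on the array, and the SD was 0.22 against 0.19. In 601 probes (97.4%) the mean lay between -0.5 and 0.5. The plus and the minus strand did not stand apart, with medians of -0.01 each.

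A probe was called where both arrays gave a log2 ratio of 1 or more in size with the same sign, which is 2-fold. This held for 3 of 617 probes (0.486%), where the share over all measured probes of the array was 0.14%. The 3 calls were all lower after pre-miR-424, beside a share of 0.0857% over the array in that direction. The count of higher probes was 0, beside a share of 0.0546% over the array. They fell in 2 regions, so they are not 3 separate observations. By the same rule on the ratios of Cy5 over Cy3, 0 of 617 probes followed the dye, with 0.0974% over the array. At 1.5-fold, 5 of 617 probes passed, 1 higher and 4 lower, with 0.849% over the array in either direction, 0.421% higher and 0.429% lower. At this size 2 probes (0.324%) followed the dye, against 0.549% over the array. The share of the 617 probes past 1.5-fold, 0.81%, was thus near that of the array, and the 2-fold calls rested on the 2 regions described next.

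The region at chr11:121962085-122073559 on the minus strand was lower with both of its probes. It spans 111475 bases and lies, by general knowledge and not by an annotation of hg19, in the locus of MIR100HG, the host transcript of let-7a-2, miR-100 and miR-125b-1. Probe A_19_P00806287 had a spot signal of 180 for pre-miR-424 and 472 for control with normal labelling, and of 92 and 933 on the swap. Probe A_19_P00807828 had 187 and 669 with normal labelling, and 102.5 and 955 on the swap. In both probes the control signal was the higher one on each array, whichever dye it carried. The log2 ratios of A_19_P00806287 were -1.98 and -2.29, a mean of -2.13 ± 0.22 (SD of 2 arrays), or 4.39-fold lower. Those of A_19_P00807828 were -2.46 and -2.19, a mean of -2.33 ± 0.19, or 5.01-fold lower. The scanner software's log ratios gave larger falls, with mean log2 ratios of -3.10 and -3.19 for these probes. The difference between the probes, 0.19, was of the size of the SD between arrays. This was the only one of the 273 regions in which every measured probe was called.

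Other probes in the same stretch of chromosome 11 did not show a change of that size. The probe of the overlapping minus-strand region chr11:122009090-122080940 had ratios of -0.28 and -0.32, lower on both arrays. That of chr11:122051045-122238681, also on the minus strand, had 0.02 and 0.11. The plus-strand entry of chr11:122009090-122080940 had -0.14 and 0.15, of opposite sign on the arrays. The probe of the RefSeq transcript MIR100HG had -0.01 and -0.13. The fall of more than 4-fold was therefore seen with 2 probes of 1 named interval and not with the other probes listed here. Both entries of chr11:122009090-122080940 were dimmer than the member probes. Their mean log2 intensities were 7.71 on the minus strand and 6.69 on the plus strand, against 8.24 and 8.41. The offset draws ratios of dim probes towards 0, so a larger fall could be hidden there. The probes of chr11:122051045-122238681 and MIR100HG were brighter, at 9.20 and 10.3. The overlapping intervals run past the end of the region, and the positions of the probes within them are not known. Which transcripts the probes detect was not tested.

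**Figure D2:**
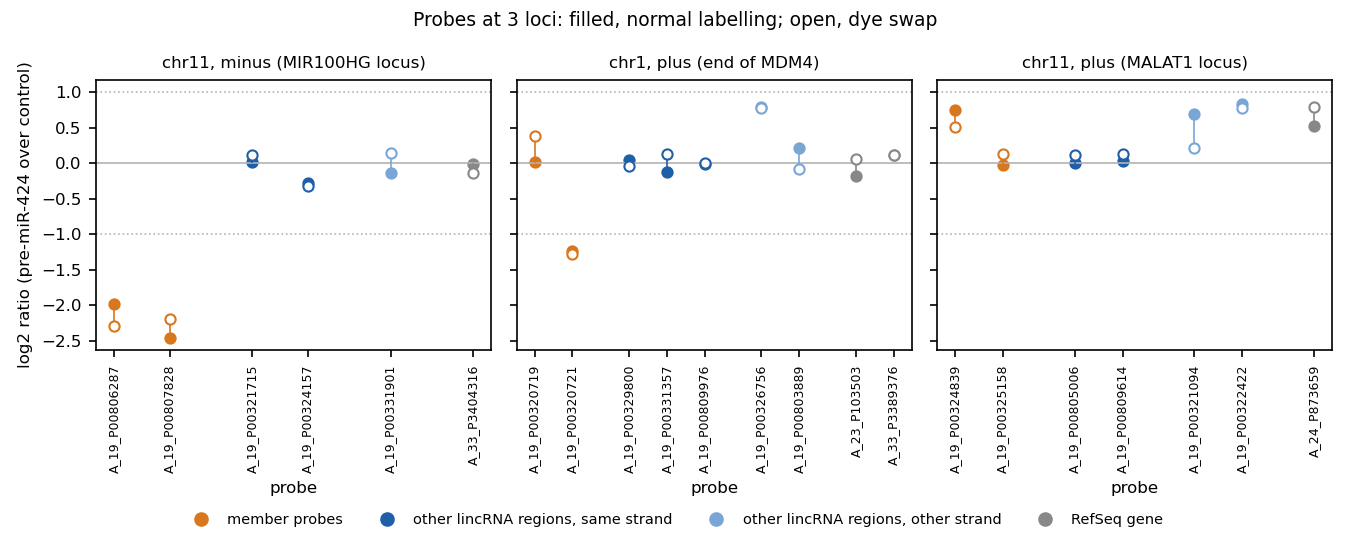
Log2 ratios of pre-miR-424 over control (vertical axis) are shown for each measured probe (horizontal axis) at the chromosome 11 minus-strand region, the chromosome 1 region and the MALAT1 locus, filled for normal labelling and open for the dye swap, with dotted lines at 2-fold. Both member probes of the first locus lie at -1.98 or lower while its other probes lie at -0.32 or higher, and at the other loci only 1 of the 2 member probes departs from 0 by more than 0.5.

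The region at chr1:204525561-204527207 on the plus strand held the remaining called probe and was split. Its 1647 bases lie, again by general knowledge, at the end of MDM4, which codes for an inhibitor of p53. Probe A_19_P00320721 had spot signals of 1409 for pre-miR-424 and 2201 for control with normal labelling, and of 857 and 4085 on the swap. Its log2 ratios of -1.23 and -1.28 gave a mean of -1.26 ± 0.04 (SD of 2 arrays), or 2.39-fold lower. The partner A_19_P00320719 had 0.02 and 0.38, a mean of 0.20 ± 0.26. The probes thus differed by 1.46, the largest range of all 273 regions and many times the SD between arrays. Both were clearly above background, and their names are 2 numbers apart.

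The probes around it also differed among themselves. The overlapping plus-strand region chr1:204525202-204541352 had 2 measured probes with means of 0.01 and 0.00. The minus-strand entry of the same interval, with 1 probe, was higher on both arrays, at 0.79 and 0.78. The longer interval chr1:204525202-204575852 had ratios of -0.01 and 0.01 on the plus strand and of 0.22 and -0.08 on the minus strand. The MDM4 messenger RNA had -0.18 and 0.05 with the probe of one RefSeq accession and 0.12 and 0.12 with that of another. Only A_19_P00320721 was lower by more than 2-fold at this locus. Both plus-strand probes of chr1:204525202-204541352 and both entries of the longer interval were dim. Their mean log2 intensities were 6.80 to 7.20, against 10.8 for A_19_P00320721. The offset given under the processing draws ratios of dim probes towards 0, so a larger fall could be hidden there.

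The second largest range was at chr11:65266349-65275177 on the plus strand, by general knowledge the locus of MALAT1, an abundant nuclear RNA of many cell types. Probe A_19_P00324839 had ratios of 0.75 and 0.50 (1.55-fold higher in the mean), and A_19_P00325158 had -0.03 and 0.13 (1.04-fold). These probes were 0.58 apart. The same division was seen in the other probes of the locus. The RefSeq MALAT1 probe was higher, at 0.52 and 0.79, and both probes of the overlapping plus-strand region chr11:65265824-65275174 lay near 0, at 0.00 and 0.12 and at 0.03 and 0.12. On the minus strand, the single probe of chr11:65271755-65272266 had 0.83 and 0.77, and that of chr11:65272189-65272464 had 0.70 and 0.21. Of the 5 plus-strand probes, 2 were thus near 1.5-fold higher and 3 differed by less than 1.1-fold, and no probe of the locus reached 2-fold on both arrays.

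In 61 of 273 regions (22.3%) all 4 values, 2 probes on 2 arrays, had one sign. In RefSeq accessions with 2 measured probes it was 664 of 2472 (26.9%), so the share was not higher in the regions. Of the 61 regions, 35 were higher and 26 lower after pre-miR-424. Beside the chromosome 11 region, the largest mean was that of chr1:214512902-214523621 on the minus strand. Probe A_19_P00323737 had 0.76 and 0.58, and A_19_P00323413 had 0.63 and 0.78. The region mean was 0.69, and the probes differed by 0.04. The second of these probes was the only one of the 617 that was higher by 1.5-fold on both arrays. The plus-strand entry of this interval had 0.38 and -0.03.

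At chr4:88778926-88869076 on the minus strand, A_19_P00811226 had 0.81 and 0.55 and A_19_P00810365 had 0.42 and 0.71, with a region mean of 0.62. A single-probe region inside it on the same strand, chr4:88813780-88814117, had 0.41 and 0.55. At chr6:39949522-39974972 on the plus strand both probes were lower, A_19_P00803122 at -0.59 and -0.72 and A_19_P00800635 at -0.70 and -0.33, with a region mean of -0.59. The minus-strand entry of that interval had 0.30 and -0.11. This was the only region among the 10 with the largest means, beside the chromosome 11 one, that was lower.

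Both probes of chr17:17089400-17095733 on the plus strand gave nearly the same value on both arrays, 0.46 and 0.49 in A_19_P00811812 and 0.46 and 0.47 in A_19_P00803575. The overlapping single probe of chr17:17094547-17095960 on the same strand had 0.52 and 0.43. These 3 probes thus lay between 0.43 and 0.52 on both arrays, and the minus-strand probe of the interval was not above background.

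At chr22:46464600-46466898 on the minus strand, the probes had 0.40 and 0.66 and 0.29 and 0.74, and the arrays differed more than the probes did. Both probes were dim, with mean log2 intensities of 7.50 and 7.68. The region mean was 0.52, but 0.86 with the scanner software's log ratios, where chr1:214512902-214523621 had 0.69. Its rank thus depended on the processing. The overlapping entries of chr22:46451236-46516536 had 0.16 and -0.01 on the minus strand and 0.33 and 0.12 on the plus strand. The remaining 4 of the 10 regions were higher by 0.39 to 0.46 in the mean, namely chr11:126219244-126219612, chr15:64753847-64771422 and chr20:31438639-31447464 on the plus strand and chr4:80995226-81008001 on the minus strand. The last of these had 0.39 where the region ranked next had 0.39, so the tenth place is not set apart. The opposite-strand entries of these 4 intervals were not well above background. The overlapping interval chr15:64753722-64771422 had smaller values, 0.15 and 0.16 on the plus strand and -0.29 and -0.08 on the minus strand.

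**Figure D3:**
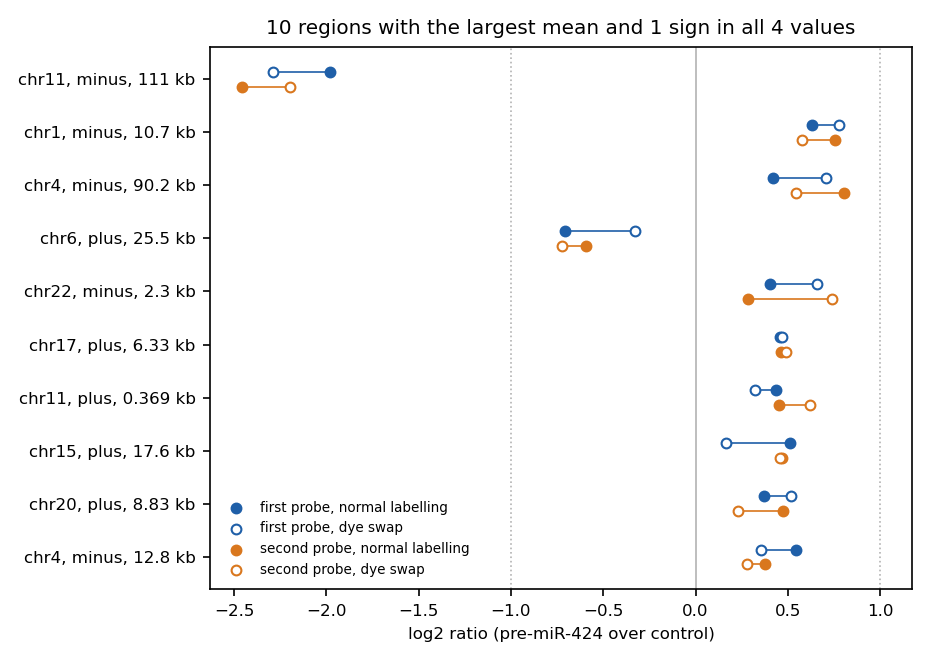
Each row is a lincRNA region, named by chromosome, strand and length, and the points are log2 ratios of pre-miR-424 over control (horizontal axis) of its 2 probes, filled for normal labelling and open for the dye swap. The chromosome 11 minus-strand region lies at -1.98 or lower in all 4 values, the other 9 regions lie within 2-fold (dotted lines), and 8 of the 10 were higher.

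Other regions in which the probes lay furthest apart had ranges from 0.50 at chr6:44006347-44033347 on the minus strand down to 0.36 at chr2:127290980-127318430 on the plus strand. In the first, A_19_P00329308 had -0.15 and -0.92 and its partner 0.19 and -0.27, so the arrays differed as much as the probes. At chr7:115939389-115975339 on the minus strand, A_19_P00811959 was lower on both arrays, at -0.27 and -0.42, while the partner had 0.23 and -0.05. At chr14:23982560-23989835 on the minus strand, A_19_P00325203 had -0.39 and -0.63 and the partner 0.07 and -0.23. At chr13:51532724-51551549 on the plus strand, A_19_P00326759 had -0.51 and -0.47 and the partner -0.02 and -0.15. In these 3 regions 1 probe was lower by 1.27-fold to 1.43-fold in the mean and the other differed by less than 1.1-fold. The other probe was the dimmer one each time. Its mean log2 intensity was 7.6, 8.0 and 7.4 in the order given, against 9.9, 9.4 and 11.4 for the lower probe. The offset draws ratios of dim probes towards 0, and its part in these ranges was not tested. The regions chr5:80172719-80178619 on the plus strand, chrX:97546119-97657219 on the minus strand and chr3:156894106-156971481 on the plus strand had probe means of opposite sign, between -0.17 and 0.28. At chr2:127290980-127318430 all 4 values were positive, 0.19 and 0.20 against 0.66 and 0.46. Over all regions the median range was 0.08, 95% had a range below 0.32, and 16 reached 0.3.

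**Figure D4:**
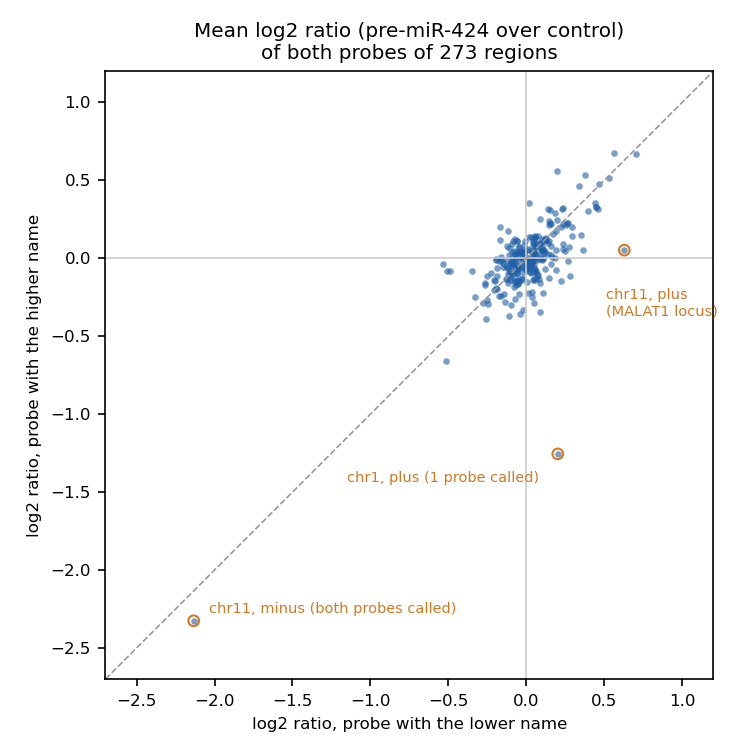
Each point is 1 of 273 regions, placed by the mean log2 ratio of pre-miR-424 over control of its 2 probes, on the horizontal axis the probe with the lower name and on the vertical axis the other, with equality as the dashed line. Most points lie within 0.5 of 0, the circled chromosome 11 minus-strand region lies at -2.13 and -2.33, and the circled chromosome 1 region lies far off the line at 0.20 and -1.26.

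Agreement over all 273 regions was moderate. The intraclass correlation, the share of the variance of probe means that lies between regions, was 0.73, but 0.57 without the chromosome 11 region, and 0.58 over 2787 RefSeq accessions with at least 2 measured probes. The median absolute difference between the probe means was 0.08. Within a single array the probes of a region differed by 0.123 with normal labelling and 0.134 on the swap, against 0.20 between the arrays for the same probe. The difference between means was 0.08 also in RefSeq accessions with 2 measured probes. Both means had the same sign in 186 regions (68.1%), where RefSeq accessions had 70.1%. These are descriptions over regions measured on the same arrays, and the regions are not replicates.

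The sign agreed more often where the values were larger. Where the larger of both means was under 0.1 in size, 49 of 99 regions (49.5%) agreed in sign. It was 72 of 99 between 0.1 and 0.2, 33 of 41 between 0.2 and 0.3, 22 of 23 between 0.3 and 0.5, and 10 of 11 from 0.5 upwards. The exception in the last bin was the chromosome 1 region. RefSeq accessions gave 56.9% in the lowest bin and 85.6% in the highest.

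The probes of a region agreed better within an array than across arrays. Each region entered both ways round, and the chromosome 11 region was left out for the values that follow. The Pearson correlation between both probes of a region was 0.49 with normal labelling and 0.52 on the swap (272 regions). It fell to 0.20 when 1 probe was taken from each array, and the same probe on both arrays had 0.23. A probe thus resembled its partner on the same array more than it resembled itself on the other one. The part of the ratios that follows the dye, the difference between the arrays divided by 2, also correlated between partners, at 0.40. RefSeq accessions with 2 measured probes also correlated better within the arrays, at 0.48 and 0.48, than across them, at 0.22 for 1 probe from each array and 0.18 for the same probe. The dye and the array are shared by both probes of a region, so agreement within an array alone covers both the cells and the labelling, and these cannot be told apart there. With the chromosome 11 region the 4 values were 0.64, 0.63, 0.40 and 0.43. The intraclass correlations given above use means over both arrays, so agreement that is particular to 1 array still enters them.

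**Figure D5:**
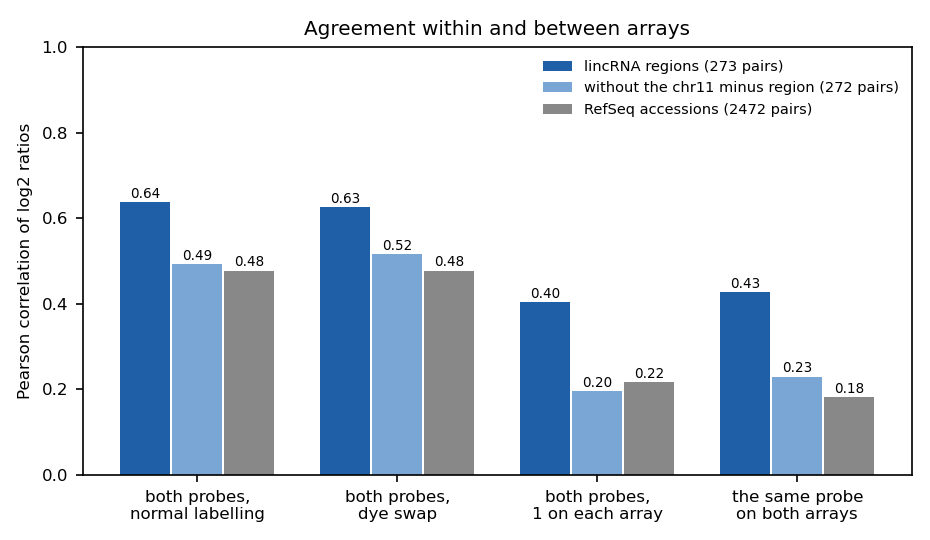
The bars are Pearson correlations (vertical axis) of log2 ratios between both probes of a region on the same array, between both probes with 1 on each array, and of the same probe on both arrays, for 273 lincRNA regions, for 272 without the chromosome 11 minus-strand region, and for 2472 RefSeq accessions with 2 measured probes. The bars within an array are higher than those across arrays in all 3 sets.

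Brightness, length and probe names went with agreement to a modest degree. With the regions split by brightness into 3 groups of nearly equal number, from dim to bright, the correlation of the mean ratios was 0.49, 0.59 and 0.58, and all 4 values had one sign in 15 of 91, 15 of 90 and 30 of 91 regions. The same probe on both arrays correlated at 0.07, 0.16 and 0.38. RefSeq accessions split at the same brightness limits gave 0.25, 0.31 and 0.15 for the same probe, so this rise was not seen there. Their correlation of the mean ratios was 0.46, 0.50 and 0.62. The offset used for the background draws the ratios of dim probes towards 0, and its part in these values was not tested. Regions under 5 kb had a correlation of the mean ratios of 0.42, those of 5 to 20 kb 0.63 and those of 20 kb and over 0.62, so longer intervals did not have less similar probes by this measure. By the median difference the order was the other way, with 0.07, 0.08 and 0.11. The dye part correlated at 0.64 in the regions under 5 kb and at 0.22 in those of 5 to 20 kb. Regions whose probe names lay within 5 had a median difference of 0.06 and those with distant names 0.09, with correlations of the mean ratios of 0.34 and 0.64. No order of agreement was therefore the same under both measures for length or probe names.

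Some of the 273 regions overlap one another. In 17 overlapping pairs on the same strand, the region means had the same sign in 7, and the median difference was 0.10. In 7 pairs on opposite strands, 4 had the same sign and the median difference was 0.13. Some regions enter several of these pairs, and the pairs include the chromosome 1 and MALAT1 loci on the same strand. Whether these counts differ from those for probes of 1 region was not tested.

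Among the probes left out as dim, none was well above background in the pre-miR-424 cells alone, and 2 were in the control cells alone on both arrays. The regions had 1386 probes. Over the whole array of 42405 probes these counts were 45 and 186. In the control-only probes, A_19_P00327457 at chr2:232219356-232231081 on the minus strand had log2 ratios of -0.11 and -0.08, and A_19_P00812418 at chr1:247372146-247372531 on the plus strand had -0.19 and 0.02, of opposite sign on the arrays. Detection in 1 dye alone was more frequent among the probes of the regions, with 10 in Cy5 alone and 1 in Cy3 alone. For the dyes no count over the whole array is given, so whether the regions differ from the array in this is not known.

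Named long non-coding RNAs, measured by probes of their RefSeq accessions, served for comparison. MALAT1 and MIR100HG, at loci described above, are among them. Of 32 listed genes 25 had a probe with a RefSeq accession and 24 were measured. None of them was called, where 0.14% of all measured probes were, and the median of their mean log2 ratios was -0.02. On both arrays 10 were higher and 8 lower. Beside MALAT1, the larger values were those of MIR155HG, the host of miR-155, at 0.26 and 0.55, of OIP5-AS1 at 0.24 and 0.48, and of H19, an imprinted RNA, at -0.25 and -0.44. MIR503HG, the neighbour of miR-424 on the X chromosome, had -0.02 and -0.18. The host transcripts MIR17HG, MIR22HG and MIR31HG had mean log2 ratios of 0.18, 0.24 and -0.24.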

How the data were processed

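RNA of RWPE-1 cells was amplified to antisense RNA and labelled with Cy3 or Cy5. The deposited scanner files (Feature Extraction 10.7.3.1, hg19) give the median intensity and local background of every spot, which are not normalized, and a log10 ratio of Cy5 over Cy3. The deposited table of log2 ratios states neither direction nor steps. It held Cy5 over Cy3 on both arrays alike (r of 0.991 and 0.988 with the ratios computed here, column medians of 0.02 and 0.04), and the submitters' processing notes name limma.

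Background was corrected by normexp with an offset of 50, and each array was normalized by loess, in limma 3.58.1 (R 4.3.3). The offset draws ratios of dim probes towards 0. Spots of a probe were averaged and ratios turned to pre-miR-424 over control. Measured probes were flagged well above background in every channel, without outlier spots. Strands were read from the suffix of the region names. Genes were named through RefSeq accessions (GRCh38.p14).

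Named regions were those with a called probe, the 10 largest means with 1 sign on both arrays, the 10 largest ranges between probes, opposite-strand entries of the same intervals, and the regions of probes above background in 1 kind of cells only. All 273 had 2 measured probes, so a planned naming of those with the most measured probes picked none. The regions and lists were chosen with earlier results of these data known. The steps were tested on simulated data with Python 3.11.15. A window of chromosome 8 with 83 lincRNA probes was left out. Some luminal markers are not reported here.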

Additional observations from a re-analysis of the deposited data

How the results depend on the processing

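The count of 3 called probes and the 1 region with every probe called were the same with an offset of 16, no background correction, the scanner software's log ratios, median centring, the authors' log2 ratios, both looser filters on brightness, spots with outlier flags, overlapping regions merged, and each array alone. Among probes brighter than the median of all measured ones, 1 probe and 0 regions were called, and 45 of 60 regions had 1 sign. At 1.5-fold, 5 probes passed. Without the chromosome 11 region, an alternative chosen after seeing the data, 1 probe and 0 regions were called. Apart from the 1.5-fold rule, no share over the array is given for these alternatives, so their counts cannot be set beside it.

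The intraclass correlation was 0.765 with the scanner's ratios, 0.702 with the filter on 1 channel, 0.576 without a filter, 0.576 among bright probes, 0.699 with overlapping regions merged, 0.572 without the chromosome 11 region, and 0.627 to 0.638 with 1 array left out. The median difference was 0.0917 with the smaller offset, 0.108 with the scanner's ratios, 0.0883 with median centring, 0.0875 without a filter, 0.0605 among bright probes, and 0.123 to 0.134 with 1 array left out. Without a filter 326 of 611 regions had 1 sign. These include 128 regions with 3 to 5 probes, in which more probes have to share the sign than in the 273 with 2 measured probes. The shares are therefore not alike. The causes were not tested. Median centring moved the median of all measured ratios to 0.10 and -0.18 on the arrays, and 1 of 40 named probe means changed sign. With the swap array left out 4 of 40 did, and with the other array left out 1 did. The scanner's ratios moved both probes of the chromosome 11 region to -3.10 and -3.19. Each ratio compares pre-miR-424 with control on the same array, so both were paired there. No paired test was possible because the arrays count as 1 replicate. Intensity over background limits the 267 regions with no measured probe, for which no ratio was given.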
